A study of Mus musculus with 12 samples.

Results

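Nucleic acid sensors are the proteins by which a cell detects foreign or misplaced DNA and RNA, and 10 of their genes and adaptor genes are described here in blood stem and progenitor cells of the mouse. They are the endosomal receptor genes Tlr3, Tlr7 and Tlr9, the cytosolic DNA sensor gene Cgas, the adaptor genes Myd88, Sting1 and Mavs, the kinase gene Tbk1, and the transcription factor genes Irf3 and Irf5. They were chosen by name from the platform's annotation, with earlier results of these data known. All 10 were found among the 19494 genes of the array, each with 1 probe set. The probe sets of the 3 members on which most results turn were TC0X00003360.mm.2 for Tlr7, TC0900002724.mm.2 for Cgas and TC1800001181.mm.2 for Sting1.

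NFAT5-deficient donors were Nfat5 fl/fl Vav-Cre mice. The donors called wild-type were Nfat5 +/+ Vav-Cre, so both genotypes carried the Cre transgene, which the Vav promoter drives in blood cells. Donor marrow with the CD45.2 allele had been given to irradiated wild-type CD45.1 mice, and donor-derived cells were sorted 13 weeks later. Within the compartment that is negative for lineage markers and positive for Sca-1 and Kit, hematopoietic stem cells (HSC) were CD48-negative and CD150-positive. Multipotent progenitors (MPP) were CD48-positive and CD150-negative. Each of the 4 groups (2 genotypes by 2 populations) had 3 arrays, numbered 66, 67 and 75 in wild-type and 64, 70 and 76 in NFAT5-deficient cells. No group was left without a transplant, and the sources used here do not give the ages of the mice. The labels do not say whether arrays of a group came from separate animals, so p-values measure the spread between these samples, part of which may be technical.

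Toll-like receptors 3, 7 and 9 sit in endosomes and bind double-stranded RNA, single-stranded RNA and DNA with unmethylated CpG, respectively. TLR7 and TLR9 signal through the adaptor MyD88 to IRF5 and IRF7, whereas TLR3 uses the adaptor TRIF. In the cytosol, cGAS makes a cyclic dinucleotide on binding DNA, which activates STING. RNA helicases of the RIG-I family signal through MAVS. STING, MAVS and TRIF all recruit TBK1, which phosphorylates IRF3 and turns on type I interferon, and interferon drives quiescent HSC into division.

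In the values used here, sort markers separated the populations. Slamf1, the CD150 gene, lay between 9.25 and 10.67 log2 units in HSC and between 6.06 and 6.90 in MPP, and Cd48 between 5.39 and 7.85 and between 9.26 and 10.61. All 9 measured genes of the HSC marker list, Slamf1 included, had a higher value in HSC (3 called), and all 7 measured genes of the MPP and lymphoid priming list, Cd48 included, had a lower one (6 called). Arrays of a group correlated at 0.898 to 0.952 across genes, but arrays of different groups could correlate as highly. Wild-type HSC arrays correlated with each other at 0.898 to 0.912. With NFAT5-deficient HSC array 64, wild-type HSC arrays 66, 67 and 75 correlated at 0.911, 0.933 and 0.927. Wild-type MPP array 67 correlated with NFAT5-deficient MPP array 76 at 0.949. Nfat5 lay between 9.27 and 9.81 in wild-type HSC and between 7.62 and 8.76 in NFAT5-deficient HSC. In MPP it lay between 8.12 and 8.85 and between 7.63 and 8.40, so that the genotypes overlapped there. limma did not call it (difference over both populations -0.96, SE 0.25, adjusted p = 0.622). Whether its probes lie in the deleted part was not tested. The 3 measured defining genes of T cells, Cd3e, Cd3d and Cd3g, were among 6 of 6 T and NK cell markers with dim signal in every group.

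Dim signal was judged against olfactory receptor genes, which are known for their use in the nose. The 5th to 95th percentiles of group means for 1080 such genes ran from 3.77 to 6.34 log2 units. Tlr9 (all 12 arrays) and Tlr3 (11 of 12 arrays) lay at or below the upper end of that range, as did Irf5 on 9 arrays, Tlr7 on 7, Myd88 and Irf3 on 4 each and Sting1 on 2. The values of Cgas, Mavs and Tbk1 lay above it on every array. A member within the range has no resolved level, and the size of a difference against it is not resolved either.

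Promoter sequences help to place the genes whose expression is described next. RefSeq's table for GRCm38.p6 held 300 bases around the start (250 before it and 50 after it) for 8 of the 10 members. Tlr7 and Sting1 were not among these 8, so their promoters were not searched for motifs. Those of Cgas (chr9:78443188-78443487, minus strand), Myd88 (chr9:119339969-119340268, minus strand), Tlr3 (chr8:45410331-45410630, minus strand) and Tlr9 (chr9:106222348-106222647, plus strand) are shown. Cgas is shown because it was low in HSC together with Tlr7 and Sting1, and the others because they hold letters of the motifs searched. Each is written 5′ to 3′ on the gene's strand, with the matches in capitals.
Cgas: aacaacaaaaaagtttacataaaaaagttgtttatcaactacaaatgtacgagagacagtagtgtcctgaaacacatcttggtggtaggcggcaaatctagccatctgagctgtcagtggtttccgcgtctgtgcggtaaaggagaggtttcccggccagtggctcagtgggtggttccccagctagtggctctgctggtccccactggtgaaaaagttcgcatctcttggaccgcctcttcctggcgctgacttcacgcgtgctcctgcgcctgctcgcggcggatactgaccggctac
Myd88: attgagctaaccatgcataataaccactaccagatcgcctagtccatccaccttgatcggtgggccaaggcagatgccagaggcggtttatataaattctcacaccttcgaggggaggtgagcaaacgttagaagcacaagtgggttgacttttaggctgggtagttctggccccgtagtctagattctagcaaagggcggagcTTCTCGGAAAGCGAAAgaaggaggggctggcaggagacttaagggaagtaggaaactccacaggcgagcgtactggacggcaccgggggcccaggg
Tlr3: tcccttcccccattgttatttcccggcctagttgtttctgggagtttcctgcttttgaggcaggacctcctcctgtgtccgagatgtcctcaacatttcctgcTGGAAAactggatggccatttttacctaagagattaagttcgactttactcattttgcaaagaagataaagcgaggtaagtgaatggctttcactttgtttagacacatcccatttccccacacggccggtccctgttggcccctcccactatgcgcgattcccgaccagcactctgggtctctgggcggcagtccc
Tlr9: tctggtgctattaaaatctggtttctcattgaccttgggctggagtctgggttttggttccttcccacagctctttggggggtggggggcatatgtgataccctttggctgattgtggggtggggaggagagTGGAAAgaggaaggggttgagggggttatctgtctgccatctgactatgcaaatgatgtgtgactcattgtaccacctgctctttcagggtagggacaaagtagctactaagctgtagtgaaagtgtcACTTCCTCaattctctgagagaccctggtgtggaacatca

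The motifs were searched on both strands in these letters: GAAA, any pair of bases and GAAA for the interferon-stimulated response element (ISRE), TTCNNNGAA for the interferon-gamma activated site (GAS), TGGAAA for the core that NFAT5 binds, and GAGGAAGT for PU.1, a factor of myeloid cells. Over all 32851 promoters of the table, 3.44% held the ISRE letters, 8.30% the GAS letters, 21.4% the NFAT5 core and 3.20% the PU.1 letters. The Myd88 promoter held GAAAGCGAAA with its first base 40 bases before the start, and TTCTCGGAA with its first base 46 bases before it, so that these matches overlap. The pattern TTCNNNGAA is the same on both strands, so this site matched on each. Tlr3 and Tlr9 each held the NFAT5 core once, with the first base 147 and 118 bases before the start. Tlr9 also held the PU.1 letters on the opposite strand, from base 11 after the start. In the Cgas promoter these letters were not found, nor in those of Mavs, Tbk1, Irf3 and Irf5, and a match in these letters is a description and not a bound site. The Tlr9 promoter held 0 CpG dinucleotides, as did 5.43% of all promoters, against 16 in Cgas and 37 in Tbk1, with a median of 7 over all promoters.

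The members farthest apart between HSC and MPP were Tlr7, Sting1 and Cgas, each with a lower value in HSC of both genotypes. limma called Tlr7 and Sting1, and Cgas just missed the threshold. In each of these genes, the 6 HSC arrays all lay below the 6 MPP arrays. The remaining 7 members did not pass the test, and over both genotypes their HSC and MPP arrays overlapped. Fewer cells of a kind that expresses a gene and less of its RNA per cell cannot be told apart in RNA of sorted pools.

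Tlr7, the single-stranded RNA receptor gene, read 4.46, 4.28 and 4.64 log2 units in wild-type HSC (arrays 66, 67 and 75) and 4.50, 5.0 and 4.54 in NFAT5-deficient HSC (arrays 64, 70 and 76). In MPP it read 7.90, 6.18 and 8.59 in wild-type and 7.25, 6.35 and 8.54 in NFAT5-deficient cells. Every HSC array lay in the range of the olfactory receptor genes, and the MPP arrays spread widely, with wild-type array 67 and NFAT5-deficient array 70 the lowest. Averaged over genotypes, the difference was -2.90 (SE 0.43, 95% confidence interval -3.84 to -1.95, limma adjusted p = 0.0127). The exact stratified permutation p was 0.005, the smallest possible with labels permuted within genotype and arrays taken as independent. The call held in 12 of 12 fits that each left out 1 array, with adjusted p between 0.00467 and 0.0403. It was lost with the sample number as a replicate block, a planned setting (limma adjusted p = 0.0658). Without both HSC arrays 66 (wild-type) and 70 (NFAT5-deficient), a setting chosen after seeing the data, the difference was -2.98 and the adjusted p 0.0663. The difference was -3.09 among wild-type arrays (limma adjusted p = 0.101, and 0.0375 without MPP array 67) and -2.70 among NFAT5-deficient arrays (0.190), and neither was called.

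Sting1 encodes the endoplasmic reticulum adaptor that answers to cGAS. Wild-type arrays 66, 67 and 75 gave 6.17, 7.52 and 6.96 for HSC, against 7.93, 7.76 and 8.33 for MPP. NFAT5-deficient arrays 64, 70 and 76 gave 6.81, 6.32 and 6.35 for HSC, against 7.65, 8.03 and 7.67 for MPP. The highest HSC array, wild-type 67, came close to the lowest MPP array, NFAT5-deficient 64. Over both genotypes Sting1 was lower in HSC by a log2 difference of -1.21 (SE 0.23, 95% confidence interval -1.71 to -0.70, limma adjusted p = 0.0496). HSC arrays 66 and 70 (6.17 and 6.32) were in the dim range, so the size is not fully resolved, and the call sat at the threshold. It held in 1 of 12 fits without an array (adjusted p = 0.0212 without wild-type HSC array 67) and was lost without any other array (0.0561 to 0.117). The difference itself stayed between -1.37 and -1.03 in those 12 fits. With the sample number as a replicate block the call was also lost (limma adjusted p = 0.169).

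Cgas, the enzyme gene upstream of Sting1, ran the same way. Its wild-type arrays gave 7.65, 7.50 and 8.03 for HSC, against 8.44, 8.94 and 9.21 for MPP. In NFAT5-deficient cells it read 8.20, 8.24 and 7.53 in HSC and 9.37, 8.64 and 8.92 in MPP. The highest HSC array (8.24) lay just under the lowest MPP array (8.44). Over both genotypes the value was 2.09-fold lower in HSC (log2 difference -1.06, SE 0.22, 95% confidence interval -1.55 to -0.58), which did not pass (limma adjusted p = 0.0695, and 0.0477 without the intensity trend).

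Counted over the members, limma called 2 of 10 in HSC against MPP over both genotypes, both lower, against 0.610% of all 19494 genes called and 0.313% called lower. At an unadjusted p under 0.05 there were 4 members, all lower (Tlr7, Sting1, Cgas and Irf5), against 12.2% of all genes and 4.71% lower. Complete separation of 6 HSC from 6 MPP arrays with HSC lower was seen in 3 members and in 0.575% of all genes. Within wild-type, limma called 0 members (0.164% of all genes), 4 had an unadjusted p under 0.05 (8.90% of all genes), and 4 had HSC arrays all below MPP arrays (4.74%). Within NFAT5-deficient cells these were 0 members (0.210%), 3 members (7.90%) and 3 members (5.39%). The median difference of the 10 members over both genotypes was -0.35, beside a median over all genes of 0.06. Because the members were chosen with earlier results of these data known, these counts describe the list and do not test it.

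**Figure D1:**
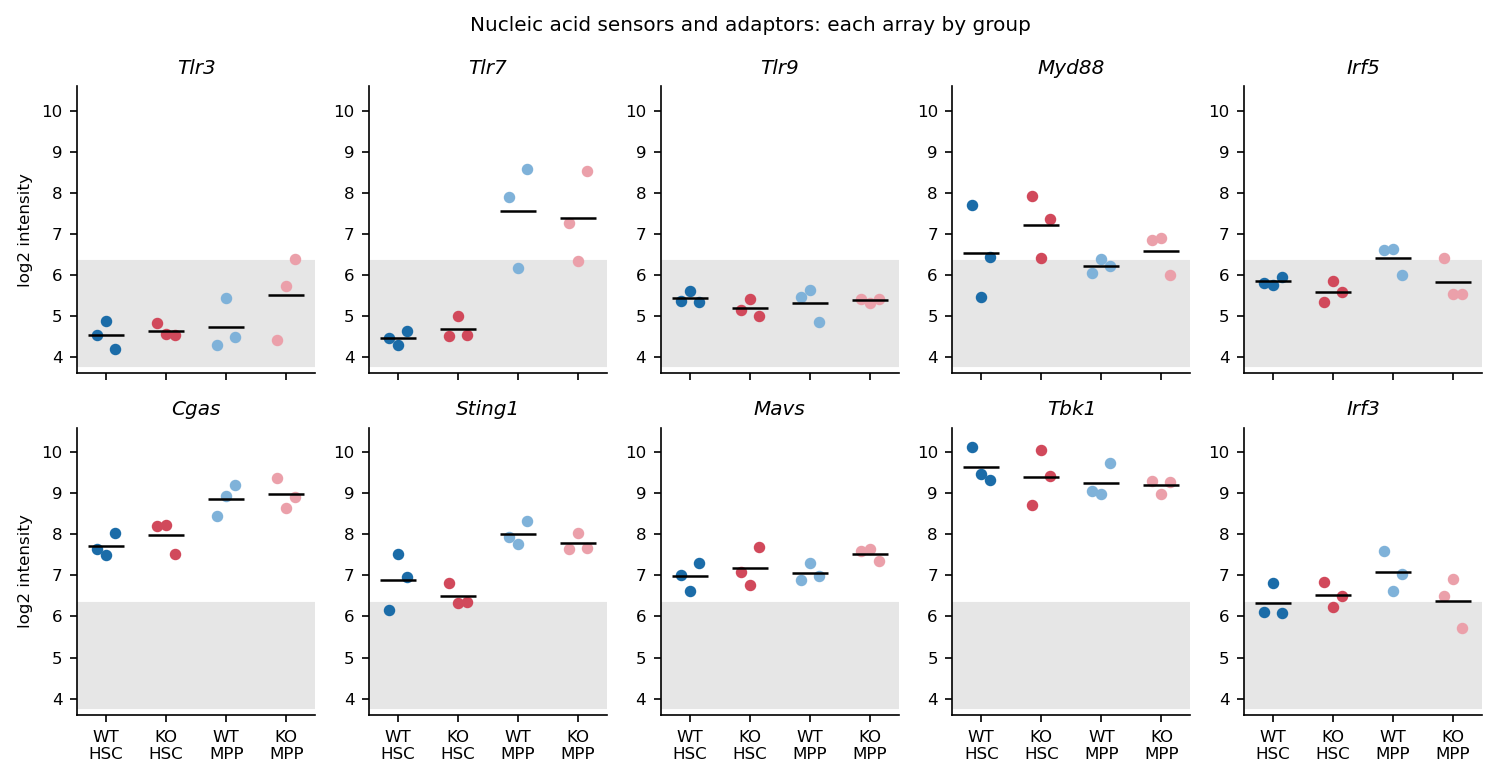
Log2 intensity (vertical axis) of the 10 members on each of the 12 arrays, by group (WT, wild-type; KO, NFAT5-deficient), 3 points per group, with the group mean as a bar and the range of the olfactory receptor genes (3.77 to 6.34) in grey. For Tlr7 all 6 HSC arrays and 1 of the 6 MPP arrays lie in the grey range, and the HSC arrays of Cgas and Sting1 all lie below the MPP arrays.

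The other endosomal receptor genes gave mostly dim signal. Tlr9, the DNA receptor gene, differed by -0.04 between HSC and MPP over both genotypes (95% confidence interval -0.33 to 0.26), with array values between 4.84 and 5.63, all in the dim range. Tlr3, the receptor gene for double-stranded RNA, differed by -0.53 (95% confidence interval -1.22 to 0.15). Its HSC arrays ran from 4.19 to 4.89, and its highest values were on NFAT5-deficient MPP arrays 76 (6.39) and 70 (5.73), while array 64 of that group read 4.42. A dim signal that does not differ leaves any change below the range unseen.

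Downstream of the receptors, Myd88 varied among HSC arrays more than it differed between groups. It read 7.69, 5.47 and 6.43 in wild-type HSC (arrays 66, 67 and 75) and 7.92, 6.40 and 7.35 in NFAT5-deficient HSC (64, 70 and 76), against 6.0 to 6.89 over the 6 MPP arrays. The difference of HSC from MPP was 0.48 (95% confidence interval -0.35 to 1.30, limma adjusted p = 0.625), and the HSC values lay on both sides of the MPP values. Irf5, the factor that MyD88 activates, gave 5.80, 5.76 and 5.96 on wild-type HSC arrays, against 6.60, 6.63 and 5.98 on wild-type MPP arrays. These groups did not overlap, though their nearest arrays almost met. In NFAT5-deficient cells Irf5 ran from 5.35 to 5.84 in HSC and from 5.52 to 6.40 in MPP, which overlapped, and over both genotypes the difference was -0.40 (limma adjusted p = 0.410).

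Of the cytosolic arm past the sensors, Mavs, the adaptor of RNA helicases on mitochondria, differed by -0.21 between HSC and MPP (95% confidence interval -0.63 to 0.21). For Tbk1, the kinase gene on which STING and MAVS converge, the difference was 0.29 (95% confidence interval -0.27 to 0.85), with arrays between 8.71 and 10.12 in HSC and between 8.98 and 9.75 in MPP. The difference of Irf3, the factor TBK1 phosphorylates, was -0.30 (95% confidence interval -0.84 to 0.24). All 3 intervals held 0.

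**Figure D2:**
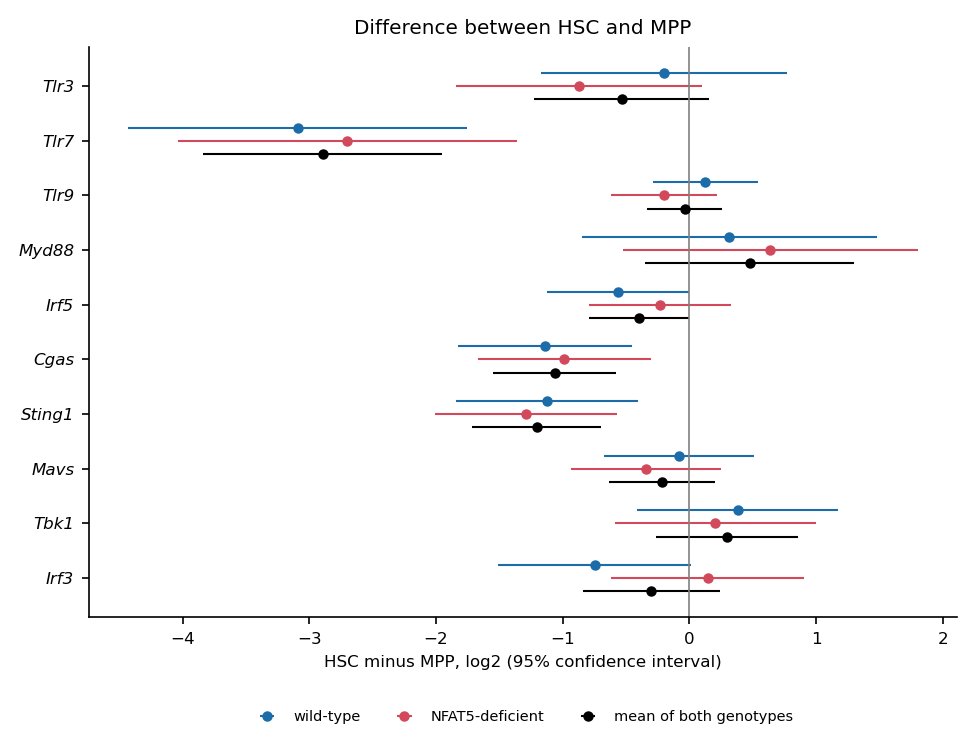
HSC minus MPP in log2 units (horizontal axis) for each member, in wild-type (blue), in NFAT5-deficient cells (red) and as the mean of both genotypes (black), with 95% confidence intervals from limma. Tlr7, Cgas and Sting1 are the 3 members whose intervals lie below 0 in both genotypes.

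Markers of more mature cells moved with the population in part. The lymphoid priming list fell in HSC with its gate, and Ly6c2, a monocyte surface gene, lay between 4.54 and 5.87 over the HSC arrays and between 6.14 and 8.85 over the MPP arrays (difference -2.19, limma adjusted p = 0.104). Of 8 measured monocyte and macrophage markers 6 had a lower value in HSC and 0 were called. Their summed level on the log2 scale ran from 9.01 to 9.52 over HSC and from 9.36 to 10.39 over MPP arrays. By group mean, the measure used for these lists, Csf1r, Adgre1, Cx3cr1 and Ccr2 were in the dim range in every group. Single arrays could lie above it, and Ccr2 was within it on 10 of 12 arrays. Ccr2 read 3.96 to 4.80 in HSC, 4.15 to 6.71 in wild-type MPP and 5.15 to 7.71 in NFAT5-deficient MPP. Of 7 plasmacytoid dendritic cell markers, a cell type rich in Tlr7, 4 had a lower and 3 a higher value, with a summed level of 9.42 to 9.61 in HSC and 9.53 to 9.72 in MPP. Siglech, Ccr9 and Pacsin1 of that list were in the dim range in every group. Bst2, above that range on every array, had the list's lowest difference (-0.43). Its group means were 7.56 (wild-type) and 7.54 (NFAT5-deficient) in HSC, against 7.99 and 7.97 in MPP. Conventional dendritic cell markers had 5 of 7 lower values, with Flt3, which also marks MPP, as the 1 called gene, and Itgax, Xcr1 and Clec9a in the dim range. Their summed level was 10.81 to 11.14 in HSC and 11.34 to 11.74 in MPP. B cell markers (7 measured, 0 called) summed to 9.22 to 10.06 in HSC and 9.40 to 9.86 in MPP. Of 2 measured erythroid markers Car1 was called lower (-2.35, limma adjusted p = 0.0046) and Klf1 was 0.20. Their summed level was 7.06 to 7.39 in HSC and 7.63 to 9.22 in MPP. The 9 mature neutrophil markers (6 lower, 0 called, with Ltf, Retnlg, Lcn2, Mmp8 and Mmp9 in the dim range in every group) summed to 8.73 to 11.85 in HSC and 9.65 to 11.50 in MPP. The part of these cells in the differences of Tlr7, Cgas and Sting1 was not tested.

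Genes whose values over the 12 arrays were most like those of the members with group means more than 1 log2 unit apart were found among all genes. Tlr7 was most like Car1 (Pearson r = 0.93), Mcpt8 (0.92) and Dntt (0.91), which are genes of erythroid cells, basophils and lymphoid progenitors. Cgas was most like Emb (0.94), Dhrs3 (0.92) and Bcr (0.91). For Sting1 they were Parp8 (0.93), the granule protease gene Ctsg (0.92) and Cst7 (0.92). For Myd88 they were Opalin (0.88), Pdcd1lg2 (0.87) and Kdm7a (0.83). These are correlations over 12 arrays that share 4 groups, picked as the highest of all genes, and describe these arrays only.

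Between genotypes, none of the 10 members passed the test in HSC, in MPP or over both populations. In HSC the value of NFAT5-deficient cells was above that of wild-type for 6 members and below it for 4, with a median difference of 0.14. In MPP 5 were higher and 5 lower, with a median of -0.0029. limma called 0 of 10 members in HSC (0% of all genes), 0 of 10 in MPP (0.00513% of all genes, a single gene) and 0 of 10 over both populations (0%). At an unadjusted p under 0.05 there were 0 members in HSC (6.18% of all genes), 1 in MPP (Irf5, 5.35% of all genes) and 1 over both populations (Irf5, 7.11% of all genes). Nfat5 itself was not called, so a missing call does not show that a gene was level. Neutrophil markers had 7 of 9 lower values in NFAT5-deficient cells (median -0.51, 0 called). In wild-type HSC they summed to 11.67 (array 66), 11.85 (array 67) and 8.83 (array 75), against 8.73 to 8.85 for NFAT5-deficient HSC. In wild-type MPP they summed to 11.45 (array 66), 11.50 (array 67) and 9.65 (array 75), so array 75 was lowest in both wild-type populations. NFAT5-deficient MPP ran from 9.92 to 10.65. B cell markers had 7 of 7 lower values and 0 called, with a median of -0.06, the same as over all genes (-0.06). The part of these in the genotype values was not tested.

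Irf5 had the smallest p among the members in MPP and over both populations. Its wild-type MPP arrays read 6.60, 6.63 and 5.98 and its NFAT5-deficient MPP arrays 6.40, 5.54 and 5.52. The groups overlapped, because NFAT5-deficient array 64 lay above wild-type array 75. The difference in MPP was -0.58 (SE 0.25, 95% confidence interval -1.14 to -0.02, limma adjusted p = 0.896), and in HSC -0.25. Over both populations it was -0.42 (95% confidence interval -0.81 to -0.02, limma adjusted p = 0.690, exact stratified permutation p = 0.075), and 9 of 12 arrays were in the dim range.

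Mavs was the 1 member whose genotypes did not overlap in a population. In MPP it read 7.59, 7.64 and 7.35 in NFAT5-deficient and 6.88, 7.31 and 6.99 in wild-type cells, a difference of 0.47 (95% confidence interval -0.13 to 1.06, limma adjusted p = 0.896). The exact permutation p was 0.1, the smallest that 3 against 3 arrays allow. Of all genes, 12.6% did not overlap between genotypes in MPP, 3.80% with the higher values in NFAT5-deficient cells, as in Mavs, and 8.84% with the lower. In HSC the Mavs arrays overlapped (7.09, 6.76 and 7.69 against 7.02, 6.61 and 7.30). There 0 members were apart, against 10.2% of all genes, and over 6 against 6 arrays 0 members were apart, against 0.256% of all genes.

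For Irf3 the genotype difference was -0.71 in MPP (95% confidence interval -1.47 to 0.05) and 0.18 in HSC (-0.58 to 0.95). Wild-type MPP read 7.61, 6.63 and 7.03 and NFAT5-deficient MPP 6.50, 6.91 and 5.72, so that array 70 lay among the wild-type arrays. The difference between the effects in HSC and MPP was 0.89 (95% confidence interval -0.19 to 1.97, limma adjusted p = 0.999). In this test of the interaction 0 of 10 members passed (0% of all genes), and 0 had an unadjusted p under 0.05 (4.19% of all genes).

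Among the sensors, Tlr3 differed by 0.77 between genotypes in MPP (95% confidence interval -0.20 to 1.75) and by 0.10 in HSC, and Tlr9 by 0.06 and -0.26. Tlr7 differed by -0.17 in MPP, where its spread was wide (95% confidence interval -1.51 to 1.17), and by 0.22 between dim values in HSC. For Cgas the differences were 0.26 in HSC and 0.11 in MPP. Sting1 ran the other way, with -0.39 in HSC (95% confidence interval -1.11 to 0.33) and -0.23 in MPP (-0.94 to 0.49). Myd88 had the largest value in HSC, 0.69, with an interval from -0.47 to 1.86. Tbk1 differed by -0.25 and -0.07. The 95% confidence intervals of all these differences held 0, and in HSC those of Tlr3, Tlr7, Sting1, Myd88 and Tbk1 also held a change of 1 log2 unit in at least 1 direction.

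**Figure D3:**
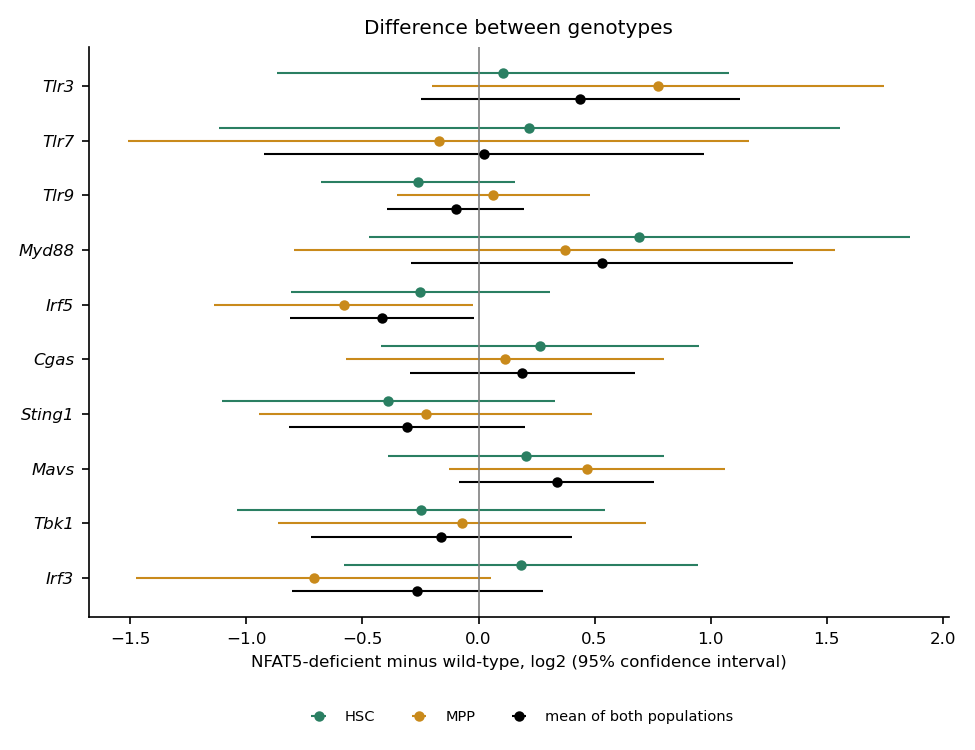
NFAT5-deficient minus wild-type in log2 units (horizontal axis) for each member in HSC (green), in MPP (ochre) and as the mean of both populations (black), with 95% confidence intervals from limma. Apart from Irf5 in MPP and over both populations, every interval holds 0.

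The other genes of these pathways were taken from 8 lists with 87 genes, of which 77 were measured and 10 were not analysed here. limma called 0 of 77 in each of the 7 comparisons. In HSC against MPP over both genotypes, 4 had an unadjusted p under 0.05 and a lower value and 5 a higher one, against 4.71% and 7.44% of all genes. Of the 77, 30 had a lower value, with a median of 0.03 beside 0.06 over all genes. In NFAT5-deficient against wild-type cells over both populations, 1 had such a p with a lower and 3 with a higher value, against 4.63% and 2.48% of all genes, and the median was 0.04 beside -0.06.

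Partners of the endosomal receptors gave values on both sides of 0. 5430427O19Rik, the mouse gene for TASL, which joins the transporter SLC15A4 to IRF5, was -1.17 in HSC against MPP (SE 0.39, limma adjusted p = 0.268). Tlr8, next of kin to Tlr7, was 0.31 (limma adjusted p = 0.222), with all 12 arrays in the dim range. Unc93b1, the escort that carries these receptors to endosomes, was 0.03. Cd14 was -0.26 in NFAT5-deficient against wild-type cells (limma adjusted p = 0.669), also with all 12 arrays in the dim range. In the signalling chain, 10 of 11 measured genes had a higher value in HSC over both genotypes (median 0.16, beside 0.06 over all genes), but 6 of 11 in wild-type and 7 of 11 in NFAT5-deficient cells. Ticam1, the TRIF gene, was 0.31, with 9 of 12 arrays in the dim range, and Tab1 was 0.39 (limma adjusted p = 0.372 and 0.462). Tab2 was 0.36 in NFAT5-deficient cells (limma adjusted p = 0.709).

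In the cytosolic RNA list, Dhx9, a helicase, was -0.47 and Prkra -0.86 in HSC against MPP (limma adjusted p = 0.232 and 0.559). Ddx58, which encodes RIG-I, was 0.20 in that comparison and 0.55 in NFAT5-deficient against wild-type cells (limma adjusted p = 0.861 and 0.732). In the cytosolic DNA list, Tmem203, which encodes a STING-binding membrane protein, was -1.32 in HSC (limma adjusted p = 0.259).

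Lrrfip1, which encodes a cytosolic nucleic acid binding protein, was named for its small p in the cytosolic DNA list. In wild-type HSC it read 8.83, 8.49 and 8.14, below all of the 9 other arrays (9.45 to 9.76). Of all genes, 4.74% had wild-type HSC arrays all below wild-type MPP arrays. In HSC, 10.2% did not overlap between genotypes, and 3.55% did so with the higher values in NFAT5-deficient cells. The share with wild-type HSC below all 9 other arrays was not counted. HSC differed from MPP by -1.11 among wild-type arrays and by -0.13 among NFAT5-deficient arrays, and the difference between genotypes was 1.09 in HSC and 0.12 in MPP. The test of the difference between these effects gave 0.97 (SE 0.29, 95% confidence interval 0.33 to 1.61), with an unadjusted p of 0.00677 and a limma adjusted p of 0.999. In that test 4.19% of all genes had an unadjusted p under 0.05. None of the 7 comparisons called Lrrfip1 (smallest limma adjusted p 0.0828, HSC against MPP in wild-type).

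Around TBK1, 7 of 8 measured genes had a higher value in NFAT5-deficient cells (median 0.24, against -0.06 over all genes), with the scaffold gene Tank at 0.41 and the related kinase gene Ikbke at 0.65 (limma adjusted p = 0.722 and 0.729). Tbkbp1, another scaffold gene, was 0.83 (limma adjusted p = 0.690), but 11 of its 12 arrays were in the dim range. The remaining array, NFAT5-deficient HSC 70, read 8.11, against 6.19 and 5.85 on the others of its group. Of the other interferon regulatory factors, Irf8 was -0.07 and Irf4 was 0.12 in HSC against MPP over both genotypes, and Irf4 and Irf7 were in the dim range on 11 of 12 arrays each. Irf1 was -0.54 in HSC against MPP among wild-type and 0.77 among NFAT5-deficient arrays (limma adjusted p = 0.828 and 0.755). Between genotypes Irf1 was 1.27 in HSC and -0.03 in MPP (limma adjusted p = 0.792 and 0.995), and the difference between these effects was 1.31 (adjusted p = 0.999). Among genes that clear or modify nucleic acids, Pnpt1 was -0.54 and Setdb1 -0.34 in HSC (limma adjusted p = 0.587 and 0.589). The interferon genes themselves, Ifna1 (0.28) and Ifnb1 (0.16), were not called in HSC against MPP either (limma adjusted p = 0.499 and 0.625).

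**Figure D4:**
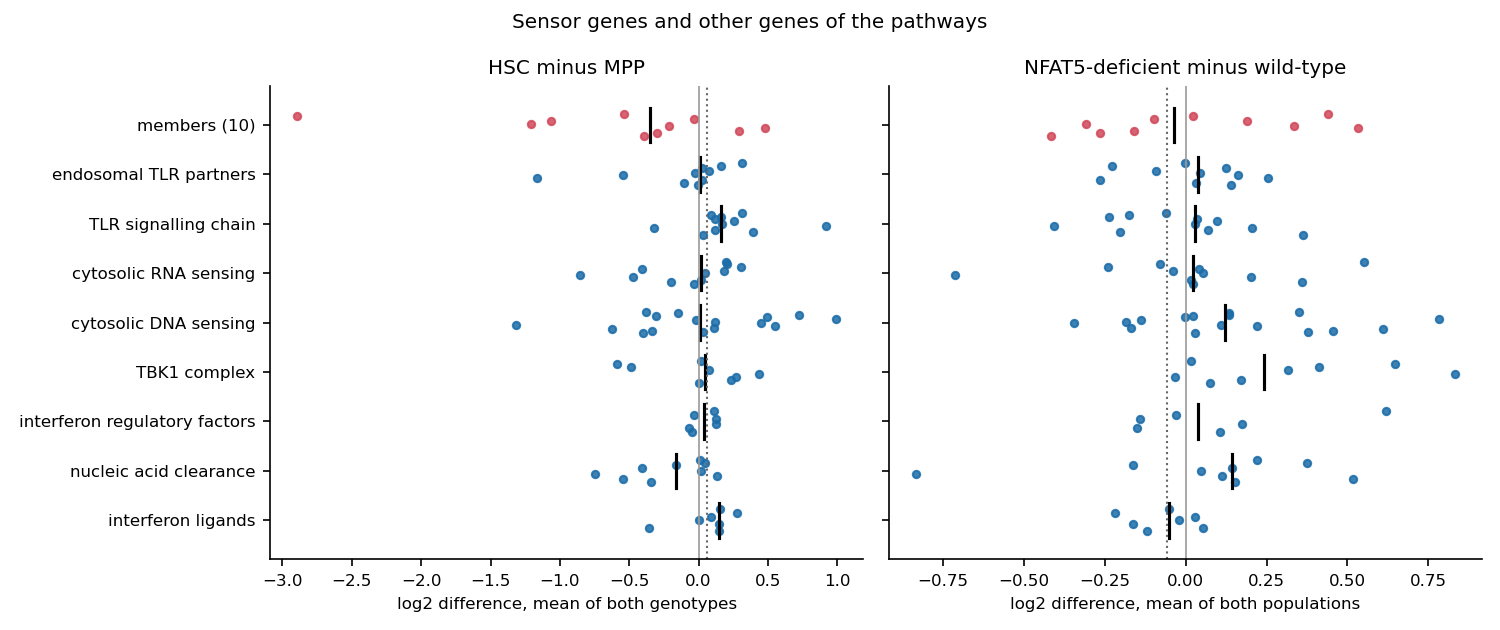
Log2 difference (horizontal axis) of each measured gene, by list, for HSC minus MPP over both genotypes (left) and NFAT5-deficient minus wild-type over both populations (right), with list medians as black bars, the members in red and the median of all genes as a dotted line. Tlr7, at -2.90, lies farthest from 0 on the left, and on the right the members lie between -0.42 and 0.53.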

How the data were processed

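RNA of 12 sorted samples was measured on single-colour arrays. The labels' protocols give an input of 300 pg of total RNA, amplified with NuGEN Ovation One-Direct. The authors deposited log2 intensities of 22142 probe sets. RMA and limma appear in the submitters' processing notes, with neither version nor role, and no further normalization was applied. No scan date or detection call was used, so no batch was tested. The number of arrays limits the precision.

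Gene symbols came from the platform annotation (19527 probe sets with 1 symbol, 2615 without a name here). The brightest probe set stood for a gene. limma 3.58.1 in R 4.3.3 was fitted to all 12 arrays with a mean per group and an intensity trend in eBayes, with Benjamini-Hochberg adjustment over 19494 genes in each of 7 comparisons and calls at an adjusted p under 0.05. The fit was tested on simulated data, made by shuffling each gene's deviations from group means over the 12 arrays. Such data take arrays as independent and of like spread in every group. The calls were therefore not checked for shared samples or unequal spread. Exact permutation tests were two-sided. The members and lists were chosen with earlier results of these data known. Every member was named. From each other list up to 4 called genes were named, or else the 2 with the smallest p between populations and the 1 with the smallest between genotypes. Unc93b1 was named after its values were seen. For members whose group means spanned over 1 log2 unit, the 3 most correlated genes were named.

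Across all genes, the deviations of same-numbered HSC and MPP arrays from their group means correlated at -0.01 to 0.06 (6 pairs, none over 0.1). Pairs of unlike number within a genotype ran from -0.08 to 0.04. The same-numbered wild-type pairs 66 and 67 (0.062 and 0.064) lay above that range, and the rest lay within it. The main fit did not treat numbers as pairs. With the number as a replicate block, 0 members were called in HSC against MPP over both genotypes. Low correlations across all genes cannot exclude a shared animal or pool, and neutrophil markers were lowest on array 75 in both wild-type populations. Figures were drawn with Python 3.11.15 and matplotlib 3.10.9.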

Additional observations from a re-analysis of the deposited data

How the results depend on the processing

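HSC minus MPP over both genotypes called 2 members. This became 1 with robust eBayes (Sting1 at a limma adjusted p of 0.0502) and 1 with quantile normalization (Sting1 at 0.0638). It became 0 without HSC arrays 66 and 70, a setting chosen after seeing the data (Tlr7 at 0.0663, Sting1 at 0.118), and 0 with the sample number as a replicate block. With that block Tlr7 was at 0.0658 and Sting1 at 0.169. By deviations from group means, 5 of 12 arrays correlated best with their own number, among 3 arrays of the other population each. Without the intensity trend Cgas was called as well (0.0477). Leaving out 1 array gave 1 to 2 members there and 0 to 1 in wild-type (Tlr7 at an adjusted p of 0.0375 without wild-type MPP array 67). Over all genes, 119 calls became 52 with the block and 71 to 112 without 1 array. In wild-type 32 became 5 and 11 to 30, and in NFAT5-deficient cells 41 became 3 and 5 to 32. The 1 call in MPP between genotypes became 0 to 4 without 1 array.

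With dim genes filtered out, the members' median was 0.151 for the NFAT5 effect in HSC minus in MPP and -0.748 for HSC minus MPP in wild-type, since only some members were left. Leaving out 1 array, medians ran from -0.0041 to 0.14 for genotype in HSC, -0.096 to 0.23 in MPP, -0.12 to 0.12 over both, -0.11 to 0.10 for the interaction, and, for HSC minus MPP, -0.55 to -0.20 among wild-type and -0.41 to -0.24 among NFAT5-deficient arrays.

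Values that changed sign without 1 array were all uncalled, and the cause was not tested. For genotype in HSC they were Tlr3 (-0.068 to 0.28), Mavs (-0.051 to 0.41) and Tbk1 (-0.57 to 0.092). In MPP they were Tlr7 (-0.86 to 0.34), Tlr9 (-0.17 to 0.22), Cgas (-0.0996 to 0.29) and Tbk1 (-0.21 to 0.17), and over both populations Tlr7 (-0.32 to 0.28) and Tbk1 (-0.32 to 0.011). For the interaction they were Tlr7 (-0.13 to 1.08), Cgas (-0.021 to 0.38), Sting1 (-0.52 to 0.16), Myd88 (-0.21 to 0.90) and Tbk1 (-0.50 to 0.16). For HSC minus MPP in wild-type they were Tlr3 (-0.42 to 0.15), Tlr9 (-0.11 to 0.28), Mavs (-0.24 to 0.10) and Myd88 (-0.27 to 0.85). In NFAT5-deficient cells they were Tbk1 (-0.12 to 0.55), Irf3 (-0.18 to 0.41) and Irf5 (-0.38 to 0.059), and over both genotypes Tlr9 (-0.15 to 0.043). Without HSC arrays 66 and 70, signs turned for Tlr7 between genotypes over both populations (-0.055), Cgas in the interaction (-0.012), Myd88 in wild-type (-0.27) and Tbk1 in NFAT5-deficient cells (-0.12).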
